A study of Homo sapiens with 6 samples.

Results

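The messenger RNAs described here encode the proteins of the large subunit of the cytosolic ribosome. They were chosen by name: protein-coding rows called RPL with a number (and the suffixes A, X or L), together with RPLP0, RPLP1 and RPLP2. That gave 52 genes of 48162 in the deposited table. RPL26 had 2 rows, and the row with more counts was kept. Of the 52, 50 passed the filter on low counts. RPL3L, the muscle copy of RPL3, had 5, 3 and 3 counts with the microRNA-219 mimic and 9, 6 and 1 with the control, in date order. RPL10L, the testis copy of RPL10, had 0, 0 and 1 counts with the mimic and 0 in each control library, which allows up to 0.0872 to 0.148 CPM (counts scaled to the library's total) there (3 counts per library, counting error only).

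The libraries came from HEK293, an established human embryonic kidney cell line. Cells were transfected with Ago2, the protein that holds the small RNA in the RNA-induced silencing complex, carrying a Flag tag, and with either a microRNA-219 mimic (3 libraries) or a negative control mimic (3 libraries). The complex was precipitated through the tag and its RNA was sequenced. There was 1 library of either kind for each of 3 dates in the labels: 22 August, 5 September and 18 September. All 6 libraries carry the transfected Ago2, and no untransfected cells or input RNA were used here, so a level mixes the amount of an mRNA in the cell with its recovery in the precipitate.

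A ribosome's large subunit holds the peptidyl transferase centre, which joins amino acids, and the tunnel through which the new chain leaves. The mRNAs of its proteins are among the most abundant in growing cells. Many of these mRNAs begin with a terminal oligopyrimidine tract, a C followed by a run of C and T, through which mTOR signalling and the protein LARP1 control their translation as a group.

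The first bases of the transcripts are shown here because such a tract is the sequence feature by which this family is known, and because RPL26L1, the member with the smallest p between the groups, differs in it from its near copy RPL26. Each line runs 5′ to 3′ over 15 bases before and 15 after an annotated RefSeq start (GRCh38.p14), and capitals mark the unbroken run of C and T from the start.
RPL13A: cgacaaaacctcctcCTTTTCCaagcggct
RPL38: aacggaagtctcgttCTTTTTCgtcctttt
RPLP2: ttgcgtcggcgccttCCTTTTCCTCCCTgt
RPL26: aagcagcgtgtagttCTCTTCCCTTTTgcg
RPL26L1: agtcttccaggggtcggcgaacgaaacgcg
RPL7L1: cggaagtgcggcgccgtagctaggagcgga
These windows lie at chr19:49487593-49487622 (RPL13A, plus strand), chr17:74203663-74203692 (RPL38, plus), chr11:809952-809981 (RPLP2, plus), chr17:8383179-8383208 (RPL26, minus), chr5:172958714-172958743 (RPL26L1, plus, the first of 2 annotated starts) and chr6:42879601-42879630 (RPL7L1, plus). Of the 52 members, 42 had a start in the table. A C followed by at least 4 bases that were each C or T stood exactly at a start, on the transcript's strand, in 29 of these 42 (69.0%), against 5.14% of all 27305 genes with a start. Small-subunit genes held it at 74.1% (20 of 27). Within 10 bases on either side of a start, such a run stood in 35 of the 42 members (83.3%), against 37.4% of all genes. RPL26L1 had it at neither of its starts, whereas RPL26 had a run of 12 bases. RPL22L1, a copy of RPL22, had a run of 6 bases at its start. RPL6, RPL15, RPL17 and RPL27, which are not such copies, had none within 10 bases of a start.

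The mimic's own sequence is not given in the labels. Neither its strand nor its locus is stated there. The microRNA-219a-1 locus gives the same 5p strand and a different 3p strand, hsa-miR-219a-1-3p. Shown here are the mature strands that RefSeq lists at the microRNA-219a-2 locus, with the seed (bases 2 to 8) in capitals.
hsa-miR-219a-5p: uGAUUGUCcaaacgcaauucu
hsa-miR-219a-2-3p: aGAAUUGUggcuggacaucugu
Both lie on the minus strand in GRCh38.p14, at chr9:128392676-128392696 and chr9:128392632-128392653.

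Libraries held 20233819 to 34408699 counts, and 16233 genes were tested. The 5 genes chosen as typical of HEK293 cells (PAX2, NEFM, NEFL, LIN28B and IGF2BP1) had counts in every library, with a summed level of 579 to 737 CPM. Markers of other cell types (10 genes in the table) summed, in date order, to 1.68, 10.6 and 17.3 CPM in mimic libraries and 33.5, 689 and 26.3 CPM in control libraries. The 689 CPM came mainly from haemoglobin beta (HBB), which had 23319 counts in that library and at most 2 elsewhere. The immunoglobulin heavy chain IGHA1 was at 0 in the mimic library of 22 August and the control library of 5 September, and had 135 to 422 counts in the others. PIGR (1 to 277 counts), FABP1 (0 to 85) and IGJ (0 to 37) were also lowest in those same libraries. CD14 had 19 to 34 counts, CD79A 4 to 20, ALB 5 to 25 and HBA1 0 to 336. PTPRC, the leukocyte surface protein, was at 0 in 5 libraries and at 1 count in the other. The part of these transcripts in the results below was not tested. The labels do not say whether the dates were separate cultures, so p-values measure only the spread between these libraries, which may be technical.

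Large-subunit mRNAs took 2.58, 2.82 and 3.39% of all counts in the mimic libraries of 22 August, 5 September and 18 September. In the control libraries they took 3.56, 2.51 and 3.92%. The control libraries of 22 August and 18 September were the highest of the 6, and the control library of 5 September was the lowest, so the groups overlapped. The means were 2.93% ± 0.419 with the mimic and 3.33% ± 0.729 with the control (SD, n = 3 each). Small-subunit mRNAs followed the same order of dates in the control, at 2.23, 1.503 and 2.37%, and stood at 1.59, 1.70 and 2.10% with the mimic. The ratio of large-subunit to small-subunit counts ranged only from 1.59 to 1.67 over the 6 libraries.

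**Figure D1:**
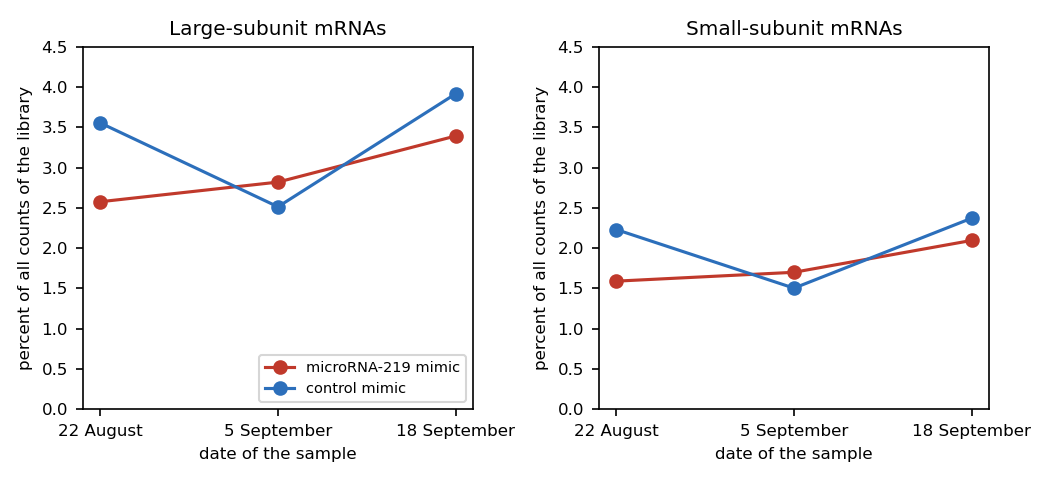
Share of all counts of each library (y axis, percent) taken by the 52 large-subunit mRNAs (left) and by the 34 small-subunit genes (right) on each date of the sample (x axis); each point is 1 library, red for the microRNA-219 mimic and blue for the control mimic. The control library is above the mimic library on 22 August and 18 September and below it on 5 September in both panels.

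The share of AGO2 moved the other way. AGO2, the transfected gene, took 18.0% of the counts in the control library of 5 September, where large-subunit mRNAs took the least, and 10.6% in the control library of 18 September, where they took the most. Ordered by falling AGO2 share, the libraries were control 5 September, mimic 5 September (16.7%), mimic 22 August (13.5%), mimic 18 September (12.6%), control 22 August (11.7%) and control 18 September. The order by rising large-subunit share was the same except that the mimic libraries of 5 September and 22 August changed places. Mitochondrially encoded transcripts were highest in the mimic library of 22 August, at 13.3%, against 5.66 to 8.39% in the others. With AGO2 and mitochondrially encoded counts left out of the total, the large-subunit share was 3.52, 3.66 and 4.24% in mimic libraries and 4.45, 3.29 and 4.73% in control libraries, in date order. The control library of 5 September was still the lowest and that of 18 September the highest. Beyond that, the part of AGO2 load in these shares was not tested.

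After normalization by TMM (trimmed mean of M values), the same libraries stood apart for nearly every member. Levels in CPM from here on use library totals scaled by TMM (factors of 0.92 to 1.06), unlike the CPM values given above. The control library of 22 August lay above the mean of the 6 libraries for 50 of 50 members and the control library of 18 September for 43, by a median of 0.25 and 0.28 on the log2 scale. The control library of 5 September lay above it for only 4 members (median −0.26), and the mimic library of 22 August for 7 (median −0.14). The mimic library of 5 September was above for 18 (median −0.11) and that of 18 September for 33 (median 0.033). Over all genes tested these medians lay between 0.0022 and 0.015. Of the 50 members, 26 had their highest level in the control library of 18 September and 20 in that of 22 August; 17 had their lowest in the control library of 5 September and 14 in each of the mimic libraries of 22 August and 5 September.

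Members differed widely in level per length. Per kilobase of the authors' gene length, and averaged over all 6 libraries after normalization, RPL5 was highest at 1445 CPM per kb, followed by RPL7A at 1377 and RPL19 at 1213. RPL5 carries the 5S ribosomal RNA together with RPL11, and RPL19 lies near the tunnel exit. RPL6 (1065) and RPL8 (1052) also passed 1000 CPM per kb, 34 members lay from 100 to 1000, and 11 lay below 100. The lowest were RPL36A at 2.57 and the paralogs RPL22L1 at 3.74 and RPL39L at 5.13, a range of 562-fold between the highest and the lowest member. The level of RPL36A, and so the size of this range, is uncertain because of an overlapping row described below. The length is the one in the table, so members listed with a long one, such as RPL37 (7686 bases) and RPL28 (5620 bases), get a low value per kilobase (43.0 and 38.7).

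**Figure D2:**
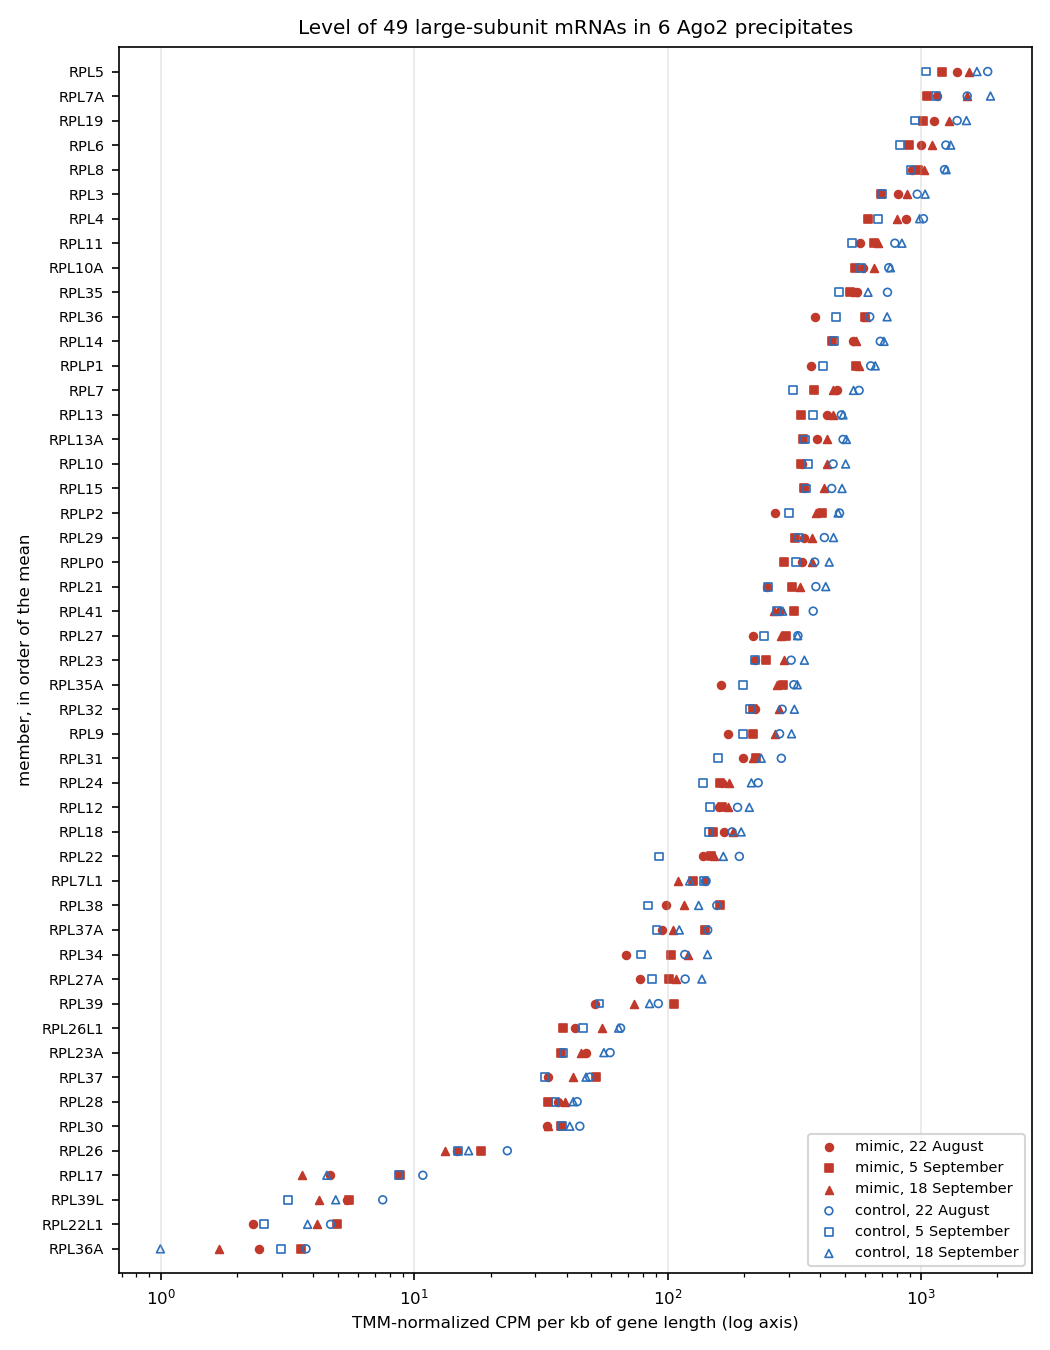
Level of 49 of the 50 tested large-subunit mRNAs (y axis, in order of the mean) in each of 6 libraries (x axis, TMM-normalized CPM per kb of gene length, log axis); filled red symbols are mimic libraries, open blue symbols control libraries, and the shape gives the date. RPL5 leads at a mean of 1445 and RPL36A is lowest at 2.57, a level made uncertain by an overlapping row. The spread between libraries of 1 member is small beside the range over members.

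Of the members that are not paralogs, RPL36A, RPL17 and RPL26 had the lowest levels per length, at 2.57, 6.84 and 16.8 CPM per kb. RPL17 and RPL26 line the tunnel exit, and RPL36A lies near the exit site for spent transfer RNA. Each of these loci is covered almost whole by another row of the table on the same strand. RPL17 (ENSG00000265681, chr18:47014851-47018893, hg19) lies 100% within the readthrough gene RPL17-C18orf32, and RPL36A (ENSG00000241343, chrX:100645812-100651105) lies 96.5% within RP1-164F3.9. RPL26 (ENSG00000161970, chr17:8280838-8286531) lies 99.5% within its second row, which held 15 counts over all libraries. Of the other 47 tested members none was covered by more than 46.8% (RPL36). How reads shared by overlapping rows were assigned is not given in the sources used here, so the levels of these 3 genes are uncertain. On the opposite strand, 22 of the 52 members overlap another row, among them RPL30 (38.2 CPM per kb) and RPL23A (47.5). The strand setting is not given either, so their levels carry a like limit.

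With the mimic, 47 of 50 tested members stood below the control in the fitted log2 fold change, against 49.7% of all genes tested, and their median was −0.19 against 0.0015 over all genes. None of them passed: 0 were higher and 0 lower at an adjusted p under 0.05 in edgeR's quasi-likelihood test, as for all genes (0% higher and 0% lower). DESeq2 and limma-voom also gave 0 members either way. Before adjustment 0 members were again past 0.05 either way in edgeR, where 1.74% of all genes lay higher and 1.26% lower. With the date of the sample as a block the unadjusted count was 0 higher and 2 lower (RPL26L1 and RPL7A), against 3.02 and 2.73% of all genes, and 0 passed after adjustment. Every member had an adjusted p of 0.999 without the block. The 95% confidence interval left out a 2-fold change either way for 49 of the 50, RPL17 being the exception.

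**Figure D3:**
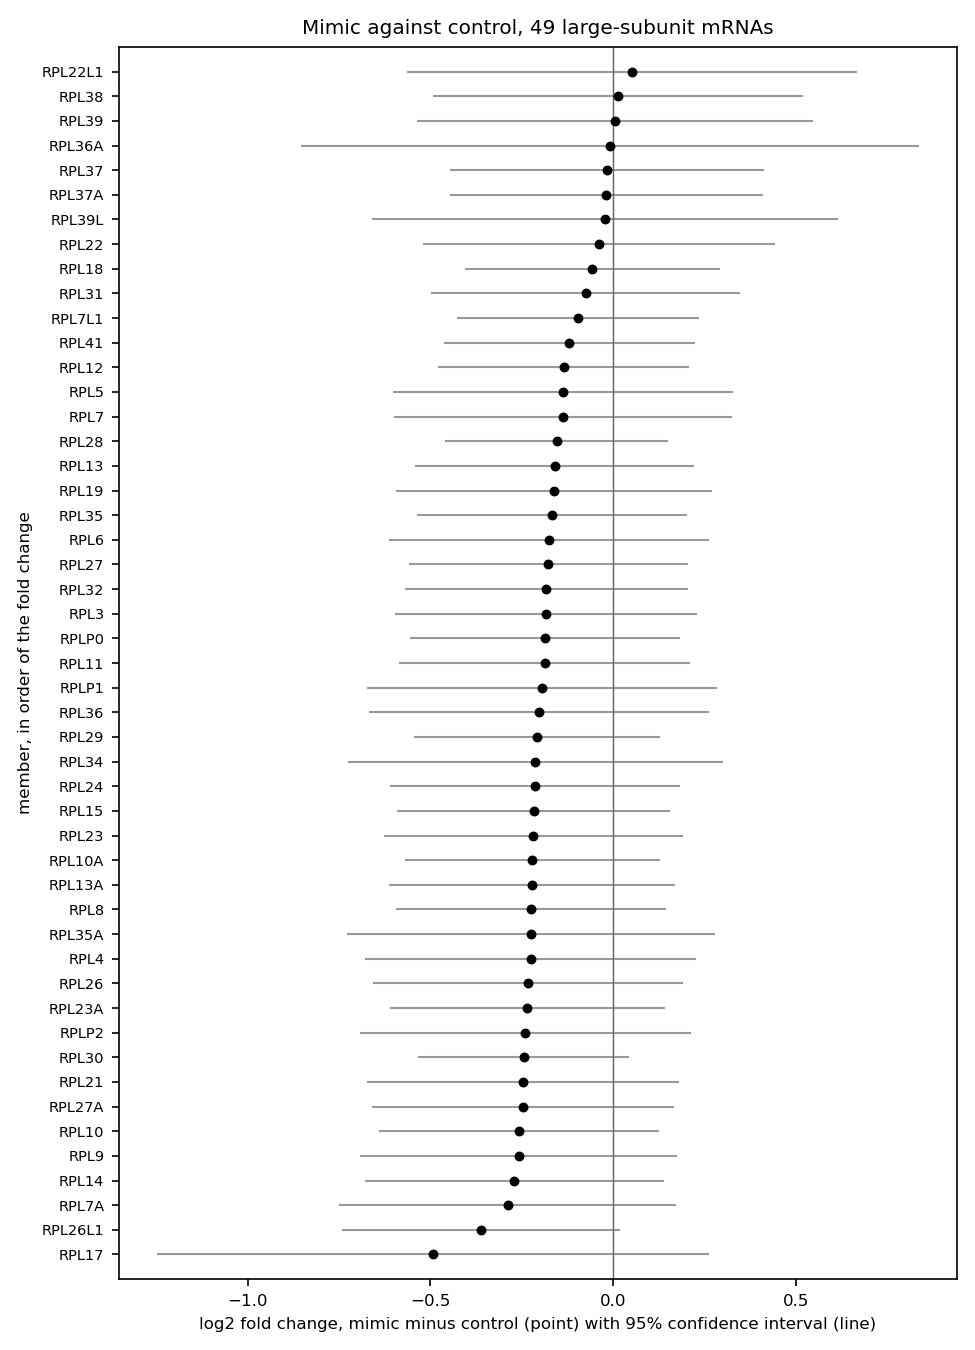
Log2 fold change of 49 of the 50 tested members, mimic minus control (x axis, points), with its 95% confidence interval from edgeR (lines), in order of the fold change (y axis); n = 3 libraries per group. Points run from −0.49 for RPL17 to 0.052 for RPL22L1, and every interval includes 0.

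RPL26L1 (ENSG00000037241, chr5:172385732-172396774, hg19), a near copy of the tunnel-exit protein RPL26, had the lowest p of all members. In date order its levels were 32.1, 28.7 and 40.7 CPM in mimic libraries and 48.4, 34.4 and 47.5 CPM in control libraries. The mimic library was below its control on each date, but the mimic library of 18 September was above the control of 5 September, so the groups overlapped. The means were 33.8 ± 6.18 and 43.4 ± 7.81 CPM (SD, n = 3 each; log2 fold change −0.36, SE 0.18, edgeR unadjusted p = 0.0613, adjusted p = 0.999). With the date as a block its unadjusted p by edgeR was 0.018, and the adjusted p did not pass.

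RPL30, which binds the subunit at its interface, was the only member whose groups did not overlap after TMM normalization. It had 37.9, 42.7 and 38.1 CPM in mimic libraries and 50.8, 43.3 and 46.4 CPM in control libraries (log2 fold change −0.24, SE 0.13, edgeR adjusted p = 0.999). On 5 September the mimic and control libraries were close, at 42.7 and 43.3 CPM. Scaled by library totals alone (1210 of 27777029 and 1464 of 34408699 counts), the mimic library was the higher, so the groups overlapped. The locus of RPL30 overlaps 2 rows on the opposite strand, MATN2 and KB-1208A12.3, and the strand setting of the counts is not given. All genes tested had non-overlapping groups in 3.84% of cases with the mimic lower and 4.22% with it higher, so the members' 1 and 0 of 50 were smaller shares than those of all genes. RPL10, which joins late and shapes the peptidyl transferase centre, had the next lowest p, at −0.26 (SE 0.18). It had 782, 780 and 982 CPM with the mimic against 1042, 828 and 1168 CPM with the control, lower on each date with overlapping groups.

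The members above 0 were RPL22L1, RPL38 and RPL39, all close to it. RPL22L1, the paralog that can replace RPL22, had 5.08, 10.8 and 9.07 CPM in mimic libraries and 10.2, 5.59 and 8.31 CPM in control libraries (log2 fold change 0.052, SE 0.28). RPL38, a small protein linked to the translation of homeobox mRNAs, had 242, 395 and 283 CPM against 383, 204 and 325 CPM (0.015, SE 0.23). RPL39, a small protein that lines the tunnel, had 98.9, 202 and 141 CPM against 176, 103 and 162 CPM (0.0050, SE 0.25). In all 3 the mimic library was the lower one on 22 August and the higher one on 5 September, and no single direction held over the dates.

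The ratio of the mimic library to the control library differed between dates. On 22 August all 50 members had a mimic to control ratio below 1, against 48% of all genes. On 5 September 33 of 50 had a ratio above 1, against 50.1%, and on 18 September 48 of 50 had one below 1, against 52.5%. The median log2 ratio was −0.43, 0.14 and −0.23 in date order, where all genes had 0.022, 0.00088 and −0.013. Members lower on all 3 dates numbered 17 of 50, against 14.4% of all genes, and members higher on all 3 numbered 0, against 15.6%. Of the variation of a member between the 6 libraries, the mimic took a median of 14.4%, the date 53.5% and the remainder 29.5%, against 11.1, 48.8 and 27.3% over all genes. With 3 dates and 2 groups, the shares of date and remainder tend to exceed that of the mimic by design. Each share is therefore read only against that of all genes.

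**Figure D4:**
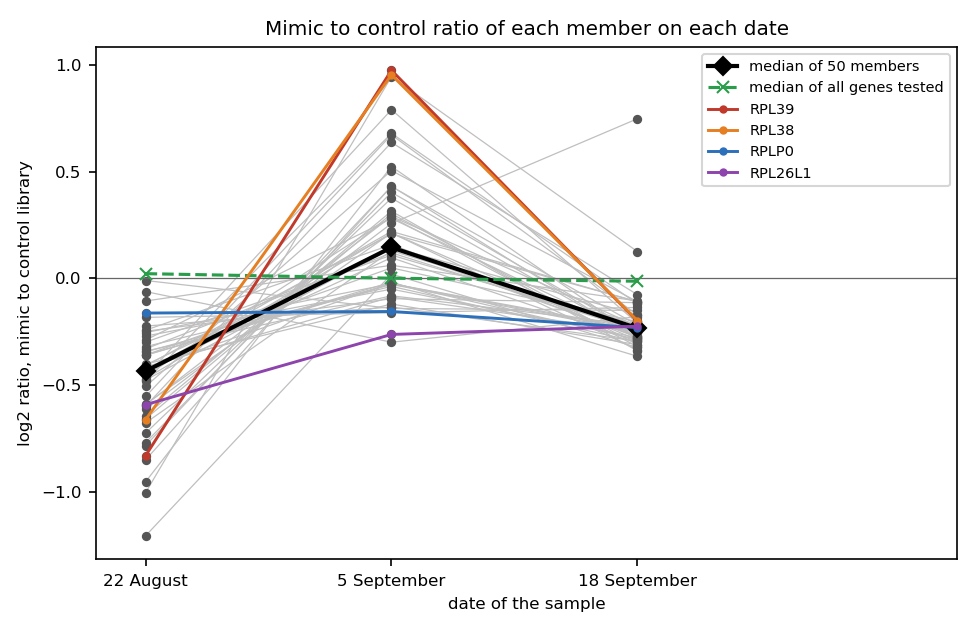
Log2 ratio of the mimic library to the control library (y axis) on each date of the sample (x axis); grey lines and dots are the 50 tested members, the black line their median, the green dashed line the median of all genes tested, and the coloured lines are 4 named members. The median of the members is −0.43 on 22 August, 0.14 on 5 September and −0.23 on 18 September, while that of all genes stays within 0.022 of 0.

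The members spread most on 5 September, up to 0.97 for RPL39 (SD over members 0.316), and least on 18 September (SD 0.162). RPL38 (0.95), RPL22L1 (0.94), RPL39L (0.79), RPL22 (0.68), RPL37 (0.67) and RPL37A (0.64) followed RPL39 on 5 September. On 22 August RPL39 was at −0.83, RPL22L1 at −1.002 and RPL38 at −0.66. Members with the higher ratios on 5 September tended to be the lower ones on 22 August. Over the 50 members the ratios of these dates, which share no library, correlated at r = −0.61. This is a correlation across genes of 4 libraries, given as a description. RPL17 was among those that departed from this order, at −1.20 on 22 August and 0.020 on 5 September. RPL39L and RPL22 lay near the members' median of 22 August (−0.43), at −0.46 and −0.48. The log2 of the table's gene length correlated with the ratio at 0.22, 0.067 and 0.22 over members in date order. That length need not be the length of the mRNA (RPL37 is listed with 7686 bases). The part of mRNA length in these ratios was therefore not tested.

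**Figure D5:**
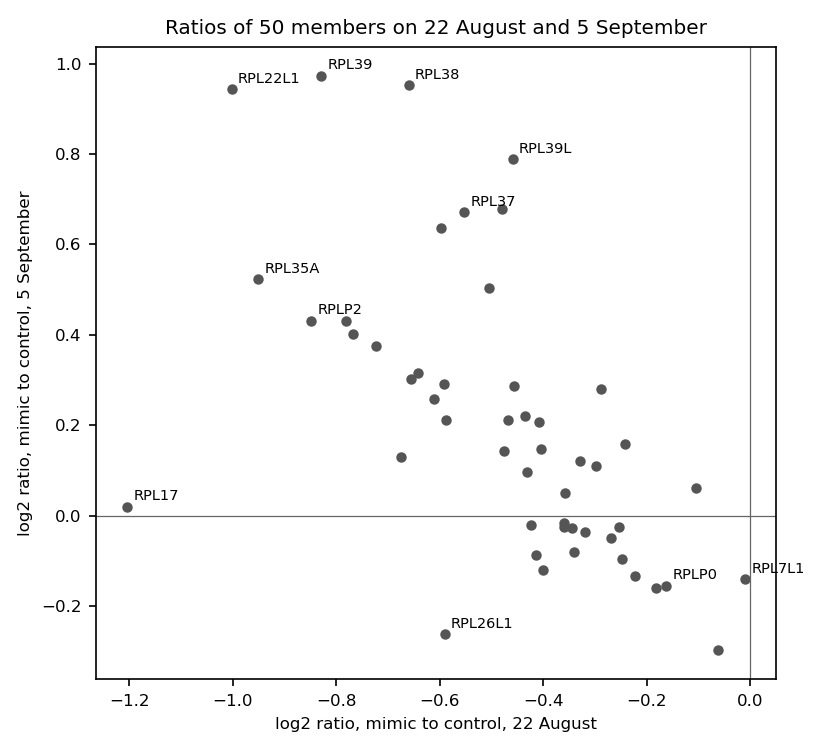
Log2 ratio of mimic to control for the 50 tested members on 22 August (x axis) and on 5 September (y axis); each point is 1 member, and 11 are named. All points lie left of 0, and those farthest to the left, RPL17 apart, tend to lie highest, with RPL39 at −0.83 and 0.97.

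By role, the stalk proteins come first. RPLP0 is the base of the stalk that recruits elongation factors, and RPLP1 and RPLP2 are its acidic arms. RPLP0 had 881, 748 and 959 CPM in mimic libraries and 985, 832 and 1124 CPM in control libraries, so the mimic library was lower on each date by a like amount (log2 ratios −0.16, −0.15 and −0.23). RPLP1 had 722, 1081 and 1112 CPM in mimic libraries and 1241, 803 and 1293 CPM in control libraries, with ratios of −0.78, 0.43 and −0.22. RPLP2 had 207, 317 and 302 against 372, 235 and 367 CPM, with ratios of −0.85, 0.43 and −0.28. RPLP1 and RPLP2 thus had a higher mimic library on 5 September where RPLP0 did not, a difference that was not tested. The log2 fold changes over dates were −0.19 (SE 0.17) for RPLP0, −0.20 (SE 0.22) for RPLP1 and −0.24 (SE 0.21) for RPLP2, and none passed by edgeR (adjusted p = 0.999 each). With 1 library left out they ran from −0.29 to −0.076 for RPLP0, from −0.38 to −0.018 for RPLP1 and from −0.42 to −0.068 for RPLP2; the lowest values came without the control of 5 September, and those nearest 0 without the control of 18 September for RPLP0 and without the mimic library of 22 August for the acidic arms. The share of variation that neither mimic nor date took was 0.82% for RPLP0, 62.5% for RPLP1 and 69.1% for RPLP2.

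RPL5 and RPL11, which carry the 5S ribosomal RNA and bind MDM2 when ribosome assembly fails, both had values below 0. RPL5 had 1669, 1465 and 1862 CPM in mimic libraries and 2216, 1268 and 2008 CPM in control libraries (log2 fold change −0.14, SE 0.21). RPL11 had 571, 645 and 669 against 783, 529 and 835 CPM (−0.19, SE 0.18). In both, 5 September was the date on which the mimic library was the higher one. Their groups overlapped, and neither passed by edgeR (adjusted p = 0.999).

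Around the peptidyl transferase centre, RPL3, RPL4, RPL8 and RPL10 were all below 0, with a median of −0.22 and 0 of 4 past the threshold. RPL4, whose loop reaches into the tunnel, was lower with the mimic on each date, at 2421, 1708 and 2228 CPM against 2826, 1874 and 2731 CPM. RPL3, which touches the centre, did the same at 1707, 1458 and 1857 against 2034, 1484 and 2186 CPM (log2 fold change −0.18, SE 0.19). RPL8 went from −0.43 on 22 August to 0.097 on 5 September and −0.29 on 18 September.

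Along the tunnel and its exit (RPL17, RPL19, RPL23A, RPL26, RPL31, RPL35 and RPL39) 6 of 7 were below 0, with a median of −0.17. RPL17 had the lowest fold change of all members, −0.49 (SE 0.35), with 4.25, 8.04 and 3.29 CPM in mimic libraries and 9.88, 7.92 and 4.13 CPM in control libraries. Its raw counts were 71 to 268 per library, and only the control library of 22 August stood clear of its mimic partner. With 1 library left out its value ran from −0.96 (without the mimic library of 5 September) to −0.22 (without the control of 22 August), and RPL26L1 was lower than RPL17 when the mimic library of 18 September (−0.51 against −0.26), the control of 5 September (−0.50 against −0.43) or the control of 22 August (−0.28 against −0.22) was omitted. RPL19 had 1469, 1328 and 1679 against 1807, 1231 and 1968 CPM (−0.16, SE 0.20). RPL31 went from −0.51 on 22 August to 0.50 on 5 September.

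Genes in which mutations cause Diamond-Blackfan anaemia, a failure of red cell production, were below 0 in 9 of 9 cases, with a median of −0.18. They ran from −0.23 for RPL26 to −0.057 for RPL18. Members that host small nucleolar RNAs in their introns, among them RPL13A and RPL7A, were below 0 in 16 of 17, with a median of −0.22. RPL7A, which had the second-highest level per length, stood at 1340, 1228 and 1764 CPM in mimic libraries and 1769, 1334 and 2186 CPM in control libraries (−0.29, SE 0.21), lower on each date. Members with the pyrimidine run exactly at a start had a median of −0.19 (29 genes) and those without one there −0.20 (12 tested genes). Among the latter, RPL3, RPL4, RPL9, RPL10A, RPL19 and RPL32 held such a run within 10 bases of a start. These lists overlap, and 0 members of any of them passed.

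Paralogs were set beside the members they copy. RPL26L1 exceeded RPL26 in level per length in every library, by 2.10 to 4.15 times. RPL26 lies almost whole under the overlapping row described above and its level is uncertain. These ratios therefore do not show which of the genes is expressed more. RPL26 itself had 14.8, 18.4 and 13.2 CPM in mimic libraries and 23.3, 14.9 and 16.4 CPM in control libraries. RPL22L1 held 0.0169 to 0.0334 of the level per length of RPL22, and RPL39L, a copy used in testis and some tumours, held 0.0525 to 0.105 of that of RPL39. RPL7L1, which acts in assembly of the subunit, held 0.226 to 0.446 of that of RPL7. RPL7L1 was the member with the ratio nearest to 0 on 22 August (−0.0099), and had 630, 566 and 493 CPM with the mimic against 634, 623 and 547 CPM in control libraries (log2 fold change −0.096, SE 0.15). RPL7 had 711, 579 and 684 against 869, 476 and 826 CPM (−0.14, SE 0.21). RPL22, which binds RNA on the outside of the subunit, had 313, 338 and 348 against 437, 211 and 378 CPM (−0.038, SE 0.22). RPL39L had 4.11, 4.195 and 3.19 against 5.68, 2.40 and 3.70 CPM (−0.022, SE 0.29). None of these differed between the groups beyond the spread between libraries by edgeR (adjusted p = 0.999).

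Each date was also set against the mean of the others, with the mimic as a term. No member passed in any of the 3 contrasts (0 of 50 each), where all genes gave 0.333% higher and 0.00616% lower on 22 August, 0% and 0% on 5 September, and 0% and 0.0493% on 18 September by edgeR. At an unadjusted p under 0.05, 19 members were lower and 2 higher on 5 September, against 5.98 and 6.89% of all genes. On 18 September 12 were higher and 2 lower, against 7.89 and 8.53%, and on 22 August 2 were higher and 0 lower, against 4.2 and 2.69%. The smallest adjusted p of a member by edgeR was 0.644, 0.358 and 0.202 in date order. RPL4 had the lowest p on 5 September, at −0.51 (SE 0.11), and RPL7A on 18 September, at 0.48 (SE 0.11).

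Of the members past that unadjusted threshold, RPL17 and RPL36A were the 2 higher on 5 September and also the 2 lower on 18 September. RPL17 was at 0.70 on 5 September and −0.998 on 18 September, and RPL36A at 0.68 and −1.24. RPL36A had 5.46, 8.00 and 3.80 CPM in mimic libraries and 8.38, 6.68 and 2.23 CPM in control libraries, so both libraries of 18 September were the lowest, and its log2 fold change with the mimic was −0.0077 (SE 0.39). These are 2 of the 3 genes that lie almost whole under another same-strand row, and the other, RPL26, was at 0.014 and −0.27. Leaving out 1 library moved the calls by date: members called lower on 5 September numbered 22 of 50 without the mimic library of 22 August (5.77% of all genes tested in that fit), 13 without that of 5 September (1.04%) and 6 when the control of 22 August was omitted (3.9%). Members called higher on 18 September numbered 23 without the control library of 22 August (10.7% of all genes), 11 when the mimic library of 5 September was omitted (2.65%) and 1 when that of 22 August was (2.96%). Members called lower on 22 August numbered 8 without the control library of that date, against 2.85% of all genes. These fits have 1 library for a date and assume that it varies like the others.

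The other lists of the pathway also had medians below 0. Small-subunit genes were below 0 in 29 of 31 tested, with a median of −0.20, and RPS23, which sits at the decoding centre, had 0.44. Mitochondrial large-subunit genes, which are encoded in the nucleus, were below 0 in 46 of 46 tested, with a median of −0.23 (MRPL36 −0.41, MRPL44 −0.33). Other mRNAs with a terminal oligopyrimidine tract were below 0 in 13 of 17, with a median of −0.20 (EIF3H −0.26, EEF1B2 −0.26). Assembly factors of the large subunit were below 0 in 28 of 37, with a median of −0.15 (MRTO4 −0.37, RRS1 −0.365). RPL36AL, a copy of RPL36A outside the naming rule, had −0.40. In each of these lists 0 genes passed over all genes either way.

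Single libraries moved nearly all of these values: 48 of 50 members changed sign or moved by over 1.5 times in log2 fold change when 1 of the 6 libraries was left out. The median of the 50 was −0.34 without the control library of 5 September, −0.12 when the control of 22 August was omitted and −0.096 when that of 18 September was. Without both libraries of 22 August it was −0.074, and without both of 5 September −0.34. With AGO2 and mitochondrially encoded genes left out of the table it was −0.18, and with a trend in the table's gene length removed −0.16.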

How the data were processed

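Raw read counts per gene were deposited by the authors. Per the submitters' processing notes, the tools were STAR 2.5, HTSeq 0.6.1 and DESeq2, with build hg19; strand and multi-mapping settings are not given in the sources used here. Depth was 20233819 to 34408699 counts per library, and 0 columns of per-sample values were left unmapped. Members and lists were chosen with earlier results of these data known.

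Counts were fitted over all genes by edgeR 4.0.16 (quasi-likelihood) in R 4.3.3, with TMM, filterByExpr with min.count 10 and min.total.count 15, no block, and Benjamini-Hochberg adjustment over 16233 genes and a threshold of 0.05. A standard error is the fitted log2 value divided by the root of its F statistic, and log2 ratios within a date were taken with a prior count of 2. DESeq2 1.42.0 and limma 3.58.1 (limma-voom) gave alternatives. The code was tested on simulated data. Figures used matplotlib 3.10.9.

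The labels give each group 1 library per date, which pairs the libraries. Deviations of same-date libraries from their group means correlated at 0.0466, 0.154 and 0.513 over all genes in date order. Over the members they correlated at −0.043, 0.216 and 0.880.

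All members may be named. Full statistics went to the stalk, 5S and paralog genes, the 3 members of lowest p each way, and the 3 highest and lowest per length; other lists name the 2 genes of lowest p. Some genes that the rule would name, 1 member among them, are not reported here by name; they stay in all fits and counts.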

Additional observations from a re-analysis of the deposited data

Results flagged for a closer look

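The mimic to control ratio of the members had opposite directions on different dates. Its median on the log2 scale was −0.43 on 22 August, 0.14 on 5 September and −0.23 on 18 September, and 33 of 50 members changed sign between 22 August and 5 September. With 1 library per group and date the difference between dates was not tested. Groups of 3 libraries are too small for a check of single outlying libraries.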

How the results depend on the processing

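With 3 libraries per group the median standard error of a member's log2 fold change was 0.19, and no member passed with the mimic under any of 20 alternatives. Of the 50 tested members 30 kept their direction under every alternative. Over all genes the mimic contrast gave 0 higher and 0 lower, 2 and 3 by DESeq2, and 6 and 14 when genes of low counts were kept. The replicate block (date) left them at 0 and 0, moved the members' median to −0.18, and changed no call. For the changes below the cause was not tested.

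Genes higher and lower on 22 August went from 54 and 1 to 105 and 10 with DESeq2 and 209 and 31 with no filter, and 3 were lower with the gene length offset. On 5 September they went from 0 and 0 to 13 and 51 with DESeq2, 96 and 108 with no filter, and 3 and 15 with the length offset. On 18 September they went from 0 and 8 to 32 and 123 with DESeq2, 151 and 343 with no filter, 5 and 35 with the length offset, and 3 and 17 with AGO2 and mitochondrially encoded genes left out. With DESeq2, 1 member was called lower on 18 September, beside 123 of 16233 genes. With no filter, all 28658 genes with a count were tested. There 5 members were lower on 5 September, beside 108 of all genes. On 18 September 2 members were higher and 2 lower, beside 151 and 343 of all genes.

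With 1 library left out, genes higher and lower ranged from 54 to 890 and 0 to 473 on 22 August, 0 to 1389 and 9 to 955 on 5 September, and 0 to 1773 and 3 to 1975 on 18 September. The top of the range came without the control library of 22 August, or without the mimic library of 22 August for 5 September. Members called higher ranged from 0 to 1, 0 to 2 and 0 to 23 in date order, and members called lower from 0 to 8, 0 to 22 and 0 to 2.

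The members that reversed had values of up to 0.24 in size with all libraries. With upper quartile normalization RPL37 was 0.0035, RPL37A 0.0016 and RPL36A 0.012, and with library size only RPL36A was 0.0051. With limma-voom RPL22 was 0.021, RPL39L 0.090, RPL39 −0.021 and RPL36A 0.10. With the replicate block RPL22 was 0.024, RPL39L 0.036, RPL39 −0.023 and RPL36A 0.078. With the length offset RPL22 was 0.012, RPL39L 0.018 and RPL36A 0.032, and with the length offset and the replicate block 0.062, 0.059 and 0.11. Without both libraries of 22 August RPL31 was 0.17, RPL34 0.015, RPL22 0.22, RPL5 0.024, RPL36 0.013, RPL27 0.020, RPLP1 0.068, RPL37 0.24, RPL26 0.021, RPL39L 0.30, RPLP2 0.041, RPL35A 0.087, RPL37A 0.29, RPL41 0.062 and RPL36A 0.38. Without both of 5 September RPL22L1 was −0.40, RPL38 −0.43 and RPL39 −0.49. Without both of 18 September RPL22 was 0.00044, RPL37 0.062, RPL39L 0.048 and RPL37A 0.0042. With 1 library left out, RPL18 ranged from −0.17 to 0.036, RPL22 from −0.29 to 0.18, RPL22L1 from −0.19 to 0.32, RPL31 from −0.27 to 0.12, RPL36A from −0.38 to 0.34, RPL37 from −0.19 to 0.13, RPL37A from −0.20 to 0.17, RPL38 from −0.21 to 0.21, RPL39 from −0.29 to 0.23, RPL39L from −0.29 to 0.35, RPL41 from −0.21 to 0.041, RPL5 from −0.34 to 0.023 and RPL7 from −0.36 to 0.015.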

Other observations

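Processed pseudogenes, reverse-transcribed copies of an mRNA elsewhere in the genome, are more common for ribosomal protein genes than for most others. The table held 411 pseudogene rows named after 45 of the 52 members, and 269 of them were at 0 in every library. Together they took 20390 counts against 4862551 for the members, or 0.418% of the sum. The share was far from even. Pseudogene rows of RPL23A held 27.8% of the sum of RPL23A and its copies, those of RPL41 13.6%, those of RPL17 7.90% and those of RPL36A 3.06%, while RPL21, with 48 such rows, had 1.28%. Reads that match a gene and its copies equally well cannot be placed, and how they were treated is not given in the sources used here, so levels of these members are uncertain. With pseudogene counts added to their members the median log2 fold change of the members with the mimic was −0.19, as without them.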
